A study of Anas platyrhynchos x Cairina moschata with 205 samples.

Results

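Hepatic gene expression was compared between embryos exposed to the first 30 min of an increase in incubation temperature and embryos left at the control temperature, on embryonic day 13 (E13). Assays were taken where both groups of livers gave 6 or more values, which left 80 genes of the 88 measured beside the reference genes, in 16 of the 205 livers of the series. The embryos were mule ducks (Anas platyrhynchos x Cairina moschata), a hybrid reared for fatty liver. The series follows the liver over several hours and then days of thermal manipulation, to learn which pathways respond to it and when.

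The control group (8 livers) stayed at the usual incubation temperature. The thermal manipulated (TM) group (8 livers) was taken 30 min after the start of an increase of 1 °C. Both groups came from eggs of the same genotype collected on the same day. Each group came from a single incubator, so temperature and incubator cannot be told apart at this point, and p-values measure the spread between livers. Before dissection the eggs of both groups were held for a while in a mobile incubator at the control temperature, and embryos of both groups were dissected in turn. Whole livers were used, so fewer cells of a type and less RNA per cell cannot be told apart.

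Cells meet heat with chaperones, which hold and refold proteins, under the control of heat shock factors that are kept inactive until unfolded proteins accumulate. In birds these factors include HSF3, beside HSF1 and HSF2. The embryonic liver lives on yolk lipid, which it takes up in lipoproteins, oxidises, and stores in droplets. Thyroid hormone, carried in plasma by proteins such as albumin, sets heat production and metabolic rate.

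Expression had been measured by quantitative PCR on microfluidic chips. The values are log2 of the deposited relative expression, in which the Ct of a gene (the PCR cycle of its detection) is set against 4 reference genes of the same liver. A log2 difference of 1 is 1 cycle. Each liver had 72 to 86 of the 88 ratios, and livers had a median Ct between 19.1 and 20.6 cycles. Of the 80 genes, 49 had a value in all 16 livers. ALB, encoding albumin, the main product of hepatocytes, had the lowest mean Ct of the panel, at 8.40 cycles.

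After 30 min, 6 of the 80 genes (7.5%) differed between the groups at an unadjusted p under 0.05 in the exact permutation test, the threshold used in the study. TET2 and HSP90AA1 were higher in the TM group (2.5% of the genes tested), whereas PLIN2, LDLR4, ALB and HSF2 were lower (5%). No gene passed the Benjamini-Hochberg correction in limma, where the smallest adjusted p was 0.238, for PLIN2, and 5 genes (6.25%) had an unadjusted limma p under 0.05. In none of the 80 genes were the 2 groups free of overlap. These 6 genes are called below in the sense of the unadjusted test alone.

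**Figure D1:**
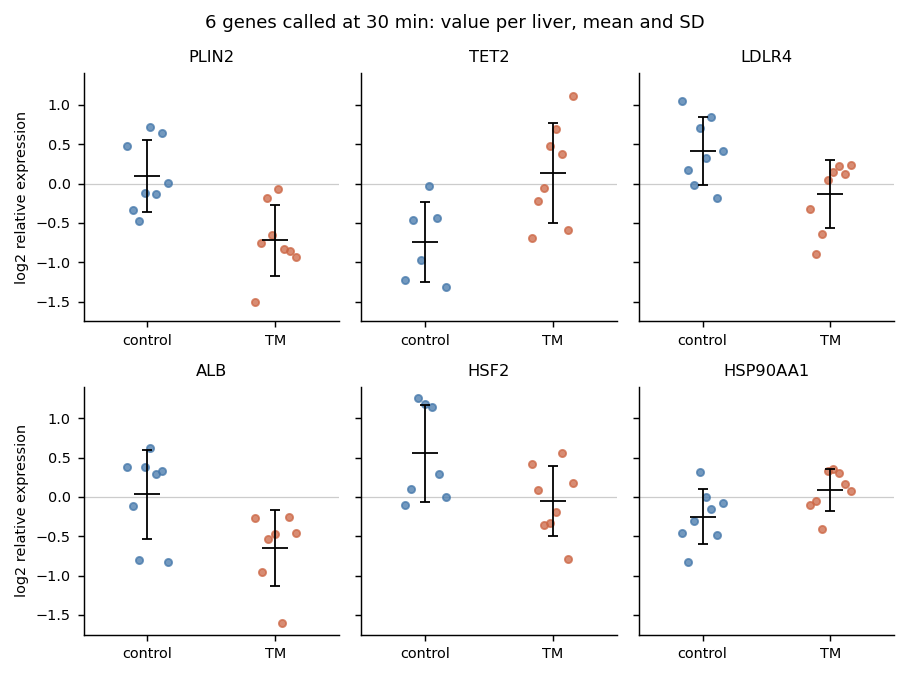
Log2 relative expression (vertical axis) of the 6 called genes in each control (blue) and TM (orange) liver after 30 min. Points are livers, and black bars are the group mean with its SD. PLIN2 shows the clearest separation, with 2 of 8 TM livers inside the range of the control group, and HSP90AA1 the least, with 6 of 8 inside.

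Genes listed under lipid transport and storage gave 2 of the 6 calls, though the place of LDLR4 in that list is uncertain. PLIN2, which coats lipid droplets and shields them from lipases, ran from −0.48 to 0.72 in control livers, with a median of −0.06. In TM livers it ran from −1.50 to −0.07, with a median of −0.80. All 8 TM livers lay below the control median and the ranges overlapped in their inner parts. The mean fell by 0.82 (limma SE 0.237, 95% interval −1.32 to −0.32), that is 1.77 times lower (exact permutation p = 0.0028, n = 8 and 8).

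LDLR4 is annotated as a protein with the class A domain of low density lipoprotein receptors. That name is not of the receptor itself, so a part in lipid transport is uncertain. LDLR4 ran from −0.18 to 1.05 in control livers (median 0.37) and from −0.90 to 0.23 in TM livers (median 0.08). All 8 TM livers were below the control median, but 5 lay within the control range. The difference was −0.55 (95% interval −1.03 to −0.07, exact permutation p = 0.0233, limma with Benjamini-Hochberg adjusted p = 0.551). APOB, the structural protein of secreted lipoproteins, and LIPC, the hepatic lipase, differed by −0.23 and −0.13 and did not pass (exact permutation p = 0.287 and 0.578). The 4 genes of this list that could be tested all had a difference below 0, and their median was −0.39, against −0.05 over all 80 genes. A difference below 0 was also seen in 44 of the 80 genes, and in each of the 6 genes placed in no list. Of the list members with too few livers, FABP4 differed by 1.03 and VLDR by −5.34. PLIN2 and LDLR4 had their lowest values in different TM livers, replicate 1 and replicate 2.

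The other genes of lipid metabolism gave no call. In fatty acid and glycerolipid synthesis, 0 of 8 genes passed, with a median difference of 0.02, and none had an unadjusted p under 0.2. The difference was 0.04 for FAS, the fatty acid synthase, with a 95% interval of −0.58 to 0.65, and −0.04 (−0.75 to 0.67) for ACC, acetyl-CoA carboxylase. CEPT1, the last enzyme of phosphatidylcholine and phosphatidylethanolamine synthesis, differed by 0.39 (−0.25 to 1.04, exact permutation p = 0.235).

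In fatty acid activation and oxidation, 0 of 9 genes passed, with a median of −0.16. ACAT1, which makes and cleaves acetoacetyl-CoA in mitochondria, came nearest. Its range was −0.75 to 0.71 in control livers (median 0.27) and −1.91 to 0.40 in TM livers (median −0.27), which overlap widely. The difference was −0.61 (95% interval −1.28 to 0.06, exact permutation p = 0.0777). CPT1A, the gate of fatty acid entry into mitochondria, differed by −0.16 (−0.77 to 0.44, exact permutation p = 0.574). Of the regulators, PPARA, which switches on fatty acid oxidation, differed by 0.11 (−0.37 to 0.60, exact permutation p = 0.602). LXRA, the sterol-sensing receptor, differed by −0.07 (−0.83 to 0.69, exact permutation p = 0.849).

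**Figure D2:**
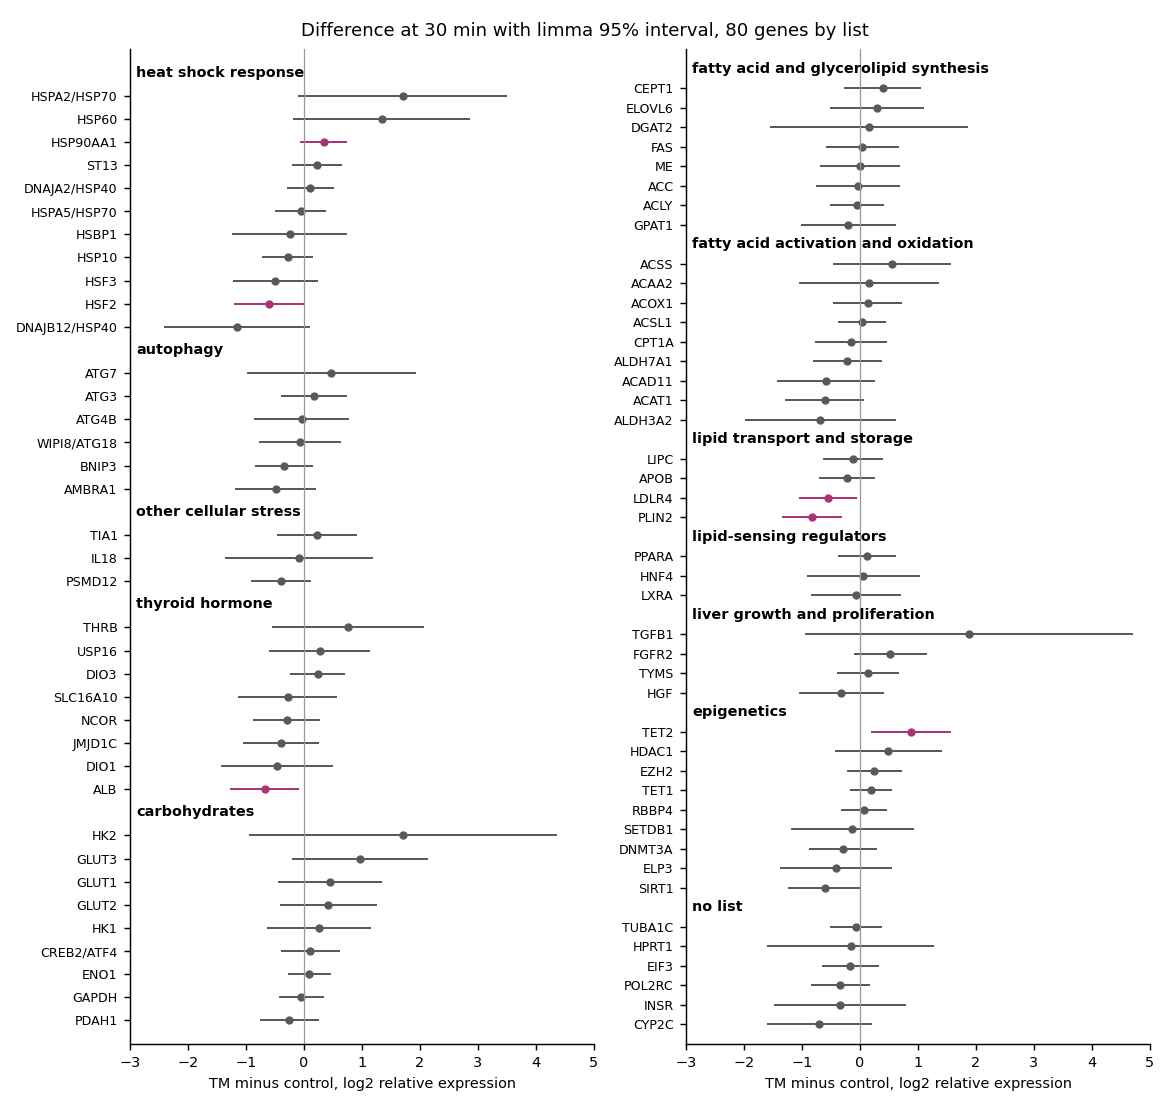
Difference TM minus control in log2 relative expression (horizontal axis) with its 95% interval from limma, for each of the 80 genes in its list. Purple marks the 6 genes with an exact permutation p under 0.05, and grey the others. Most intervals span 0, and those of TGFB1, HK2, HSPA2/HSP70 and HSP60 are among the widest.

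The heat shock response was the largest list, with 11 of its 12 genes tested, and 1 gene passed in each direction. Its median difference was −0.06, with 5 genes above 0 and 6 below. HSP90AA1, the inducible cytosolic HSP90 that also restrains heat shock factors, ran from −0.83 to 0.31 in control livers (median −0.23) and from −0.41 to 0.35 in TM livers (median 0.12). Although 7 of 8 TM livers were above the control median, 6 lay within the control range. The difference was 0.34 (95% interval −0.05 to 0.72), or 1.26 times higher (exact permutation p = 0.0494), and limma did not call it (unadjusted p = 0.086). The call was lost in 11 of the 16 comparisons that left out 1 liver, those without control replicate 1, 2, 3, 6 or 7 or TM replicate 2, 4, 5, 6, 7 or 8.

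HSF2, a heat shock factor active in development, ran from −0.10 to 1.26 in control livers (median 0.30, n = 7) and from −0.80 to 0.55 in TM livers (median −0.05, n = 8). Of the control livers, replicates 4, 5 and 6 stood above 1 and the other 4 below 0.4. HSF2 differed by −0.61 (95% interval −1.20 to −0.02, exact permutation p = 0.0483). This call was lost in 10 of 16 comparisons with 1 liver left out, those without control replicate 4, 5, 6 or 7 or TM replicate 2, 3, 4, 5, 7 or 8. HSF3 differed by −0.49 and did not pass (−1.21 to 0.22, exact permutation p = 0.178). HSF1, the main heat shock factor, had a ratio in 8 control and 5 TM livers and was not tested. Its medians were 0.94 and 0.00.

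HSPA2/HSP70, a member of the HSP70 family, had the largest difference and the widest spread among the tested genes of the list. In control livers it ran from −5.21 to 1.37 (median −0.77, n = 7) and in TM livers from −1.12 to 2.69 (median 0.85, n = 8). Control replicate 1 was at −5.21 and no other liver was below −1.39. The difference was 1.70 (95% interval −0.08 to 3.48, exact permutation p = 0.0769) and 0.98 without that liver. It passed without control replicate 4 or 8 or TM replicate 1 or 3. From all deposited Ct it was 0.59 (exact permutation p = 0.421), since control replicate 1 has no Ct there and control replicate 3, blank in the ratios, comes in as the highest control value, at 2.55.

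The mitochondrial chaperonin is built of HSP60 and its cofactor HSP10. HSP60 differed by 1.34 (−0.18 to 2.85, exact permutation p = 0.116), in an assay with a mean Ct of 25.2 cycles, the second highest of the panel. HSP10 differed by −0.28 (−0.70 to 0.14, exact permutation p = 0.143). HSPA5/HSP70, the chaperone of the endoplasmic reticulum, differed by −0.06 (−0.49 to 0.37, exact permutation p = 0.74). For HSPA5 the interval leaves out a change of 1 cycle in either direction.

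The co-chaperones did not pass either. DNAJB12/HSP40, a J-domain protein of the endoplasmic reticulum membrane, differed by −1.15 (95% interval −2.39 to 0.09, exact permutation p = 0.0942). DNAJA2/HSP40, its cytosolic relative, differed by 0.10 (−0.28 to 0.49, exact permutation p = 0.475). The values were 0.22 (−0.20 to 0.64, exact permutation p = 0.21) for ST13, which binds HSP70, and −0.24 (−1.22 to 0.73, exact permutation p = 0.627) for HSBP1, which binds heat shock factors and holds them back.

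**Figure D3:**
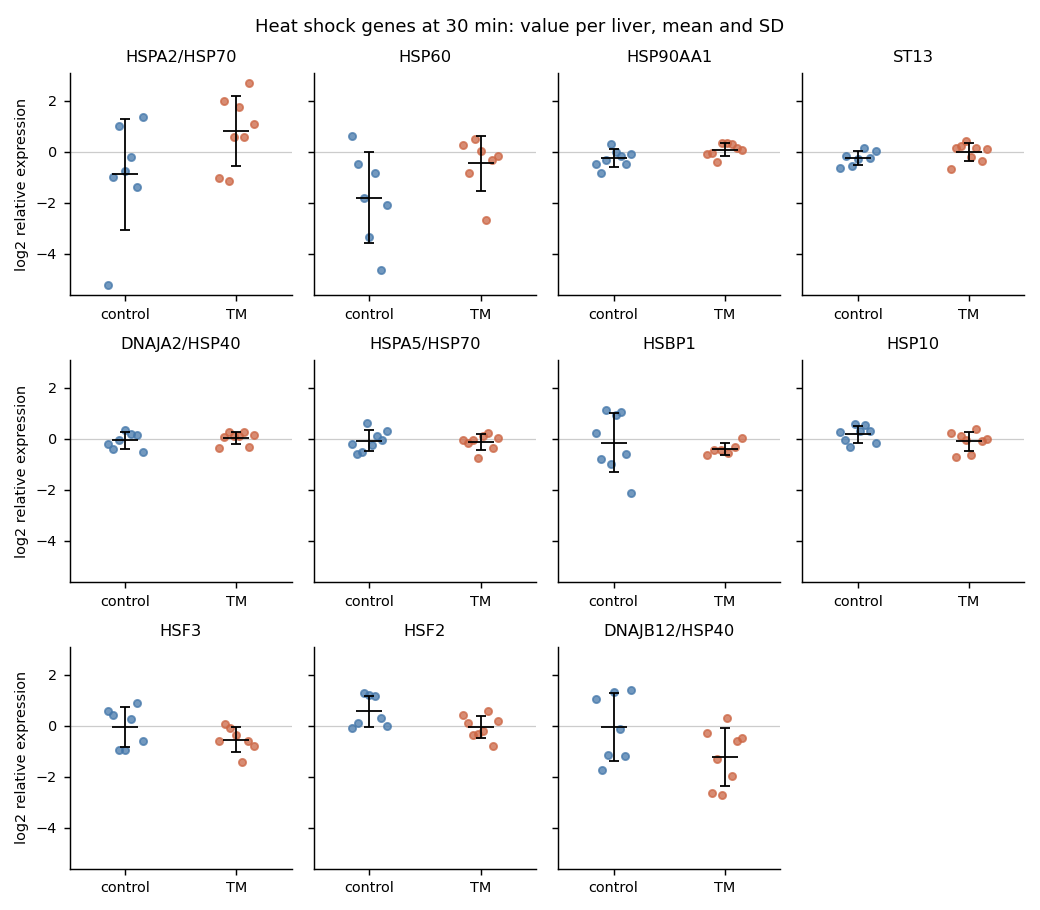
Log2 relative expression (vertical axis, common to all panels) of the 11 tested heat shock genes in control (blue) and TM (orange) livers, ordered from the highest to the lowest difference. Points are livers, and black bars are the group mean with its SD. HSPA2/HSP70, HSP60, HSBP1 and DNAJB12/HSP40 spread over several cycles, whereas HSP90AA1, ST13 and DNAJA2/HSP40 stay within about 1 cycle in each group.

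Autophagy (0 of 6 genes, median −0.06) and the other stress genes (0 of 3 tested, median −0.09) gave no call. BNIP3, a receptor of mitochondrial autophagy, differed by −0.35 (95% interval −0.84 to 0.14, exact permutation p = 0.126). PSMD12, a subunit of the lid of the proteasome, differed by −0.40 (−0.90 to 0.10, exact permutation p = 0.106), with TM replicate 1 at −1.27 apart from the rest of its group.

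Among the genes of thyroid hormone, 1 of 8 passed, and the median difference was −0.29. ALB ran from −0.83 to 0.62 in control livers (median 0.31, n = 8) and from −1.61 to −0.25 in TM livers (median −0.48, n = 7). All 7 TM livers lay below the control median, but 5 were within the control range, since control replicates 3 and 8 were at −0.80 and −0.83. ALB differed by −0.68 (95% interval −1.27 to −0.10), or 1.61 times lower (exact permutation p = 0.027, limma with Benjamini-Hochberg adjusted p = 0.551). The call did not hold when the ratio that is blank for TM replicate 6 was recomputed from its Ct and control replicate 1, which has no Ct, fell out (−0.49, exact permutation p = 0.133). It was also lost without control replicate 4 or 5 or TM replicate 5.

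The genes that act on the hormone itself did not pass. DIO1, a deiodinase of thyroid hormone, and DIO3, the one that inactivates it, differed by −0.47 (−1.42 to 0.49, exact permutation p = 0.335) and 0.23 (−0.23 to 0.70, exact permutation p = 0.274). THRB, a receptor, differed by 0.75 (−0.54 to 2.04, exact permutation p = 0.283), and NCOR, the corepressor of unliganded receptors, by −0.30 (−0.86 to 0.26, exact permutation p = 0.271).

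TET2, which oxidises methylated cytosine in DNA, was the only one of the 9 tested genes of epigenetics to pass. It ran from −1.32 to −0.02 in control livers (median −0.72, n = 6) and from −0.69 to 1.12 in TM livers (median 0.15, n = 8). All 8 TM livers were above the control median, and 4 were above every control liver. The difference was 0.88 (limma SE 0.314, 95% interval 0.21 to 1.55), or 1.84 times higher (exact permutation p = 0.0193, limma with Benjamini-Hochberg adjusted p = 0.549). TET1, of the same family, differed by 0.19 (−0.16 to 0.54, exact permutation p = 0.126). SIRT1, an NAD-dependent deacetylase, came close to the threshold in the opposite direction (−0.61, −1.23 to 0.01, exact permutation p = 0.0597), with all 8 TM livers below the control median.

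Genes of carbohydrates gave no call among 9, although 7 differences were above 0 and the median was 0.26, against −0.05 over all genes. GLUT3, a glucose transporter of high affinity, ran from −2.60 to 2.05 in control livers (median −0.20) and from 0.08 to 2.06 in TM livers (median 0.92). Its control livers were spread over more than 4 cycles and enclosed 7 of the 8 TM livers. The difference was 0.97 (−0.19 to 2.13, exact permutation p = 0.121). The glycolytic enzymes GAPDH and ENO1 differed by −0.05 (−0.42 to 0.33, exact permutation p = 0.744) and 0.09 (−0.26 to 0.44, exact permutation p = 0.491).

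Of the 4 genes of growth, none passed. FGFR2, a fibroblast growth factor receptor, differed by 0.52 (−0.09 to 1.13, exact permutation p = 0.085) and HGF, the hepatocyte growth factor, by −0.32 (−1.04 to 0.40, exact permutation p = 0.376). TGFB1, which restrains hepatocyte division, differed by 1.87 with an interval of −0.94 to 4.68 (exact permutation p = 0.147). A single control liver at −9.40 drew the control mean of TGFB1 down, and its median was 0.11 against 0.35 in TM livers.

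The precision of these comparisons varied with the gene. From the difference to the end of its 95% interval was 0.670 cycles at the median of the 80 genes, against a median absolute difference of 0.273. In 37 genes the whole interval lay within 1 cycle of 0. A p above the threshold therefore does not show that a gene was equal in both groups. The SD was larger in the control group in 54 of the 80 genes, with medians of 0.636 in control and 0.535 in TM livers. Ratios left blank although a Ct was deposited (33) are not in these SDs. HSBP1 had 2 such blanks, with an SD of 0.227 in TM and 1.17 in control livers. What part the blanks had in the spread was not tested.

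The reference genes themselves differed between the groups. STAB1, which clears modified lipoproteins in sinusoidal endothelial cells, was detected 1.27 cycles earlier in the TM group (exact permutation p = 0.00202, adjusted over the 4 reference genes p = 0.00808). ActB, cytoskeletal actin, was detected 0.644 cycles earlier (exact permutation p = 0.0455, adjusted p = 0.0911), and USP9X, a deubiquitinase, 0.428 cycles earlier (exact permutation p = 0.0845). Luciferase, an exogenous RNA added to each sample, had 22.1 ± 0.884 cycles (SD, n = 8) in TM and 22.0 ± 1.41 (n = 7) in control livers (exact permutation p = 0.967). The 69 panel genes with a Ct in every liver moved with the endogenous references, at a mean Ct of 18.7 in TM and 19.3 in control livers, 0.560 cycles earlier. What part the amount of cDNA had in this was not tested.

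Beside ALB and STAB1, the markers of liver cell types did not pass. Of the hepatocyte markers beside ALB, HNF4 differed by 0.06 (exact permutation p = 0.91) and CYP2C by −0.71 (exact permutation p = 0.136). Of the non-parenchymal markers, HGF and TGFB1 are given above, and IL18, a cytokine of macrophages, differed by −0.09 (exact permutation p = 0.888). STAB1, the marker of sinusoidal endothelium, is a reference gene and was read by Ct. It was detected 1.27 cycles earlier in TM livers, against 0.560 cycles for the panel. The part of cell composition in the calls was not tested.

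Before any reference was applied, the called genes thus looked different. TET2 had 20.8 ± 0.795 cycles in TM livers (n = 8) and 22.3 ± 0.527 in control livers (n = 6, exact permutation p = 0.00366). HSP90AA1 had 16.0 ± 0.577 cycles (n = 8) and 16.9 ± 0.363 (n = 7, exact permutation p = 0.0028). Both were detected earlier in TM livers by more than the panel was. This follows from their choice, since both were picked for a higher ratio to references that moved with the panel. The Ct p-values also hold the shift of the panel. Of the other named genes, HSP60, ST13, CEPT1 and PPARA, none of them called, had a Ct p under 0.05 in the same test.

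PLIN2 had 19.2 ± 0.787 cycles in TM livers (n = 8) and 19.0 ± 0.798 in control livers (n = 7, exact permutation p = 0.676). LDLR4 had 19.4 ± 0.522 and 19.5 ± 0.470 cycles (exact permutation p = 0.602, n = 8 and 7). In ALB and HSF2 the Ct of the groups differed by −0.10 and 0.14 cycles (exact permutation p = 0.742 and 0.676). The 4 genes lower in the ratios therefore had nearly the same Ct in both groups, and their lower ratio is relative to genes detected earlier in TM livers.

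**Figure D4:**
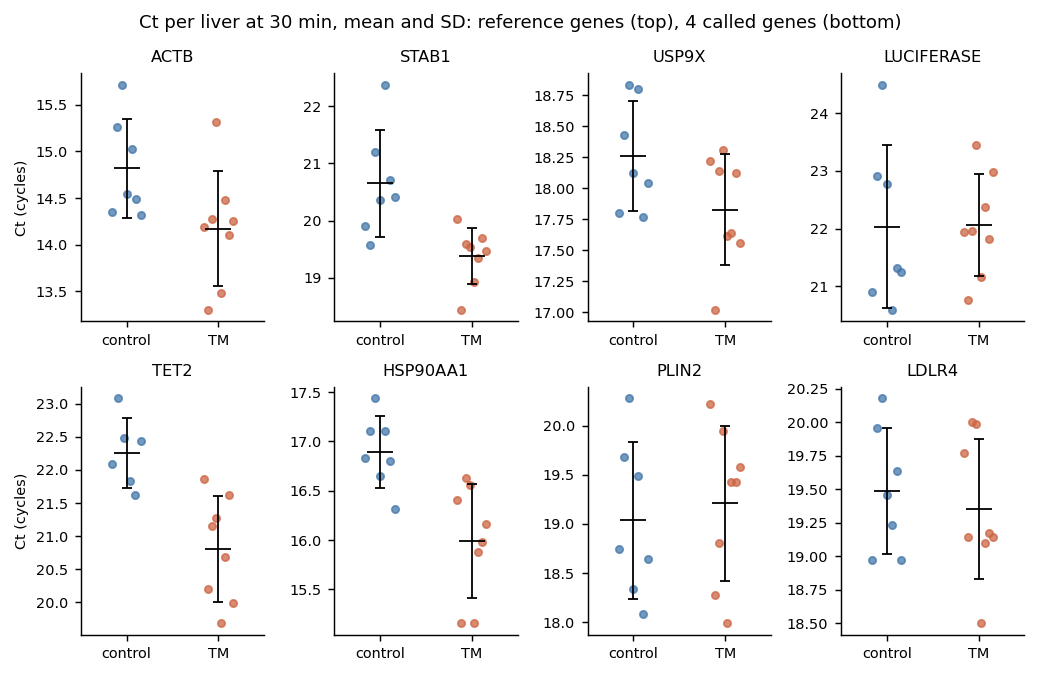
Ct in cycles (vertical axes differ between panels, and a lower Ct is more product) of the 4 reference genes and of TET2, HSP90AA1, PLIN2 and LDLR4 in 7 control (blue) and 8 TM (orange) livers. TET2 has a Ct in 6 of the 7 control livers. Points are livers, and black bars are the group mean with its SD. STAB1, ACTB, TET2 and HSP90AA1 are lower in the TM group, whereas LUCIFERASE, PLIN2 and LDLR4 overlap almost fully.

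Which genes passed, and the balance of higher and lower calls, changed with the choice of reference. Control replicate 1, which has no Ct, falls out of these comparisons, and without it alone there were 6 calls, 2 higher and 4 lower. HSP90AA1 was lost there, so these were not the same 6 genes. Without STAB1 as reference there were 8 calls, 7 higher and 1 lower. PLIN2 (−0.57, exact permutation p = 0.0359) remained the lower one, HSP90AA1 and TET2 were again higher, and ENO1, EZH2, FGFR2, HSP60 and TET1 were added, while LDLR4, ALB and HSF2 no longer passed. The HSP60 call was not particular to STAB1. With control replicate 1 likewise missing, it also passed without ActB (1.77, exact permutation p = 0.0344) and without USP9X (1.66, exact permutation p = 0.0379). Control replicate 1 was the highest control liver of HSP60, at 0.62. Leaving out that liver alone, with all 4 references kept, raised the HSP60 difference from 1.34 to 1.74, and HSP60 passed there too. The loss of that liver was thus enough for the HSP60 call, without a change of reference. PLIN2 was lost against USP9X alone (−0.60, exact permutation p = 0.057), luciferase and USP9X (−0.39, exact permutation p = 0.175) and luciferase alone (−0.15, exact permutation p = 0.761). Without luciferase there were 8 calls, all lower. TET2 no longer passed (0.68, exact permutation p = 0.0629), nor did HSP90AA1. With each liver centred on the 49 genes measured in all 16 livers, which uses no reference gene and keeps that liver, all 6 calls were kept and ACAT1 and HSP10 were added as lower, making 2 higher and 6 lower.

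The medians of the lists moved with the reference too. A change of reference shifts all genes of a liver by the same amount, so that a list moves with the panel. The median of lipid transport and storage was −0.15 without STAB1, against 0.13 over all genes, and −0.51 without luciferase, against −0.23. Its sign turned where luciferase alone was the reference (0.27, against 0.56) and with luciferase and USP9X (0.03, against 0.31). The median of carbohydrates was −0.42 with STAB1 alone, against −0.75.

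Of the 8 genes with too few livers, HDAC9, a histone deacetylase, had a Ct in 2 of 7 control and 6 of 8 TM livers, and PPARG, which promotes fat storage, in 3 of 7 and 6 of 8. ChREBP, the carbohydrate-sensing regulator of lipogenesis, had a Ct in 4 of 7 and 8 of 8. The others were nearer to even. FABP4 and VLDR had a Ct in 5 of 7 and 6 of 8, and HSF1 in 7 of 7 and 6 of 8. SCD1 had one in 3 of 7 and 5 of 8, and TLR4 in 3 of 7 and 4 of 8. The panel as a whole was also detected earlier in TM livers. VLDR, whose ratios ran from −0.97 to 1.65 in 5 control livers and from −11.2 to −0.51 in 5 TM livers, passed the same test when 3 livers per group were enough (−5.34, exact permutation p = 0.0317). Of the TM livers, 2 were at −9.34 and −11.2, with a Ct of 33.5 and 34.6 cycles, and the other 3 lay between −0.84 and −0.51. Without these 2 livers the difference was −1.49. FABP4, HSF1, SCD1 and TLR4 did not pass at that minimum.

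The same genes were followed over the next hours. The called genes were chosen by their 30 min values, which the interactions use again. Smaller differences at other points could follow from that choice alone. Livers of 2 h, 4 h and 7 h came from the incubators of 30 min, and those of 1 h, 3 h and 5 h from the other pair. The difference in PLIN2 was −0.82 at 30 min. It was 0.25 at the next point (1 h), −0.24 after 2 h and −0.28 after 4 h, and passed at 30 min alone of the 7 points. From 30 min to 1 h it changed by 1.07 (limma interaction, unadjusted p = 0.0439, adjusted p = 0.253). ALB turned from −0.68 to 0.41 at 1 h, and was again at −0.66 at 7 h (exact permutation p = 0.019).

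HSP90AA1 had a difference between 0.13 and 0.41 at every one of the 7 points, and it passed only at 30 min. HSF2 ran from −0.74 to 0.00. TET2 was at −0.52 at 1 h and at 1.59 at 4 h (exact permutation p = 0.0486). For HSP90AA1, HSF2, TET2 and LDLR4, no change from 30 min to 1 h, 2 h or 4 h had an unadjusted interaction p under 0.05.

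The change from 30 min passed the correction in 1 of 77 genes at 1 h (1.3%), while 14 (18.2%) had an unadjusted p under 0.05, and in 0 of 78 at 2 h and 0 of 76 at 4 h, where 8 (10.3%) and 5 (6.58%) did. The gene was HSPA2/HSP70, whose difference went from 1.70 at 30 min to −2.0 at 1 h (exact permutation p = 0.0034) and −1.86 at 2 h (exact permutation p = 0.0505). In TM livers of 1 h it ran from −2.18 to −0.60 (median −1.05, n = 8), and in control livers from −1.96 to 2.47 (median 1.13, n = 8). The change to 1 h was −3.70 (SE 0.996, 95% interval −5.69 to −1.70, limma with Benjamini-Hochberg adjusted p = 0.0367). To 2 h, within the same incubators, it was −3.56 (SE 1.01, limma unadjusted p = 0.000894, adjusted p = 0.0697). From all deposited Ct, a TM liver of 2 h that is blank in the ratios comes in at 4.08. The difference at 2 h is then −1.16 (exact permutation p = 0.298).

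That call changed with single livers. It was also missed with other references, where control replicate 1 of 30 min falls out as well. Without control replicate 1 of 30 min the change in HSPA2 was −2.98 (limma adjusted p = 0.0734). It also missed the threshold without control replicate 2 or 7 or TM replicate 2, 5, 7 or 8. It was −3.02 without STAB1 (limma adjusted p = 0.0796) and −2.74 without luciferase (limma adjusted p = 0.0516). Control replicate 1, which has no Ct, is missing from both, so they differ from the main fit in that liver as well as in the reference. Centred on the panel, which keeps that liver, the change in HSPA2 passed. From all deposited Ct it was −2.59 (limma adjusted p = 0.584), where control replicate 1 falls out and a control value left blank in the ratios comes in. HSP60 went the same way, from 1.34 to −1.25 at 1 h (change −2.58, limma adjusted p = 0.112), and passed in its place without control replicate 1 (limma adjusted p = 0.0372). Both groups of HSP60 moved between these points, which came from separate pairs of incubators. Its mean went from −1.79 to 2.41 in control livers and from −0.45 to 1.16 in TM livers.

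**Figure D5:**
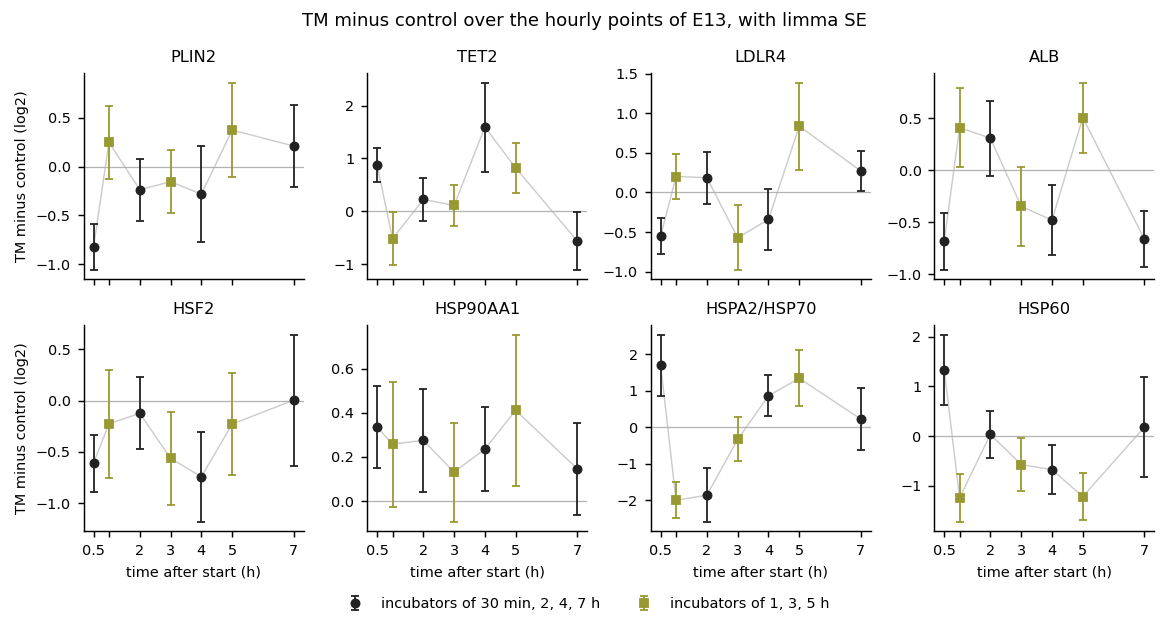
Difference TM minus control in log2 relative expression (vertical axes differ between panels), with the limma SE, against the time in h after the start of the temperature increase. Black circles are points from the incubators used at 30 min, and olive squares points from the other pair. PLIN2 is lowest at 30 min, the point by which it was chosen. HSP90AA1 stays above 0 at each point, and HSPA2/HSP70 and HSP60 are above 0 at 30 min and below it at 1 h.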

How the data were processed

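The authors measured Ct by EvaGreen quantitative PCR on Fluidigm chips after pre-amplification, and deposited relative expression ratios (2−ΔΔCt) against ActB, luciferase, STAB1 and USP9X and the average ΔCt of the gene over the trial. The deposited scores in cycles are their exported Ct. Ratios recomputed from these Ct with the geometric mean of the references matched the deposited ones within 1.29e-06, so this mean was kept. Control replicate 1 has ratios but no Ct, and 33 ratios were blank although a Ct was deposited. They stayed blank. 1 column of Ct-like values was not used. The number of livers limits the precision, and no livers held identical values. Per the submitters' notes R 3.6.2 was used.

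Here log2 ratios were compared, without a pseudocount, by the exact permutation test (two-sided, difference of means, every split of the livers) and by limma with Benjamini-Hochberg over the genes tested at the point. Changes from 30 min to 1 h, 2 h and 4 h were interaction contrasts in one limma fit. The genes named by rule (23) were those called, the 12 with the smallest permutation p, all heat shock genes tested, the gene with the smallest p of each other list and any past an adjusted interaction p. Others illustrate a list and were chosen after their values were seen. Members and lists were chosen with earlier results of these data known. All 88 assays entered, more than the study kept. Some symbols and full names in the annotation disagree (STAB1 is named Stabilin 2, ATG7 Autophagy Related 13, CYP2C CYP2E1, CREB2/ATF4 ATF2), and symbols are used. LDLR4 was placed in lipid transport and storage by its symbol, although its full name gives only a domain.

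Alternatives were other sets of reference genes, centring on the panel, detection minimums of 3 livers, a ceiling of 24 on the mean Ct, other tests, a replicate block and each liver left out in turn. Single reference genes and leaving out livers in the interactions were added after seeing the data. Replicate numbers did not pair the livers: same-numbered livers correlated at −0.278 to 0.293 (over 0.1 in 2 of 8 pairs). limma and the permutation test were tested on simulated data. Python 3.11.15, numpy 2.4.6, pandas 2.3.3, scipy 1.17.1, matplotlib 3.10.9, R 4.3.3 and limma 3.58.1 were used. No sequences were used here.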

Additional observations from a re-analysis of the deposited data

Results flagged for a closer look

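For the 23 named genes and the Ct of the 4 reference genes, control and TM livers were searched for a lone value by Dixon's test at its 95% level, which flags about 1 in 20 groups by chance. Of the 54 groups, 4 held one. HSPA2/HSP70 was at −5.21 in control replicate 1, against −1.39 to 1.37 in the other control livers (n = 7). PSMD12 was at −1.27 in TM replicate 1, against −0.49 to 0.20 (n = 8). HSP60 was at −2.65 in TM replicate 6, against −0.84 to 0.50 (n = 7). CEPT1 was at −1.97 in control replicate 7, against −0.54 to 0.39 (n = 7). The effect on HSPA2/HSP70 differed between 30 min and 1 h, by −3.70 in the limma interaction (Benjamini-Hochberg adjusted p = 0.0367), a comparison of separate pairs of incubators as well as of times. Within the incubators of 30 min, the change to 2 h was −3.56 (adjusted p = 0.0697). The difference at 2 h alone was −1.86 in the ratios and −1.16 from all deposited Ct.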

How the results depend on the processing

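The count of 6 calls was 14 (all higher) with luciferase and USP9X as references, 19 (all lower) with STAB1 only, 3 in one limma fit of the trial and 0 with the permutation p corrected by Benjamini-Hochberg. It was 4 with all Ct, without ActB or with USP9X only. Leaving out 1 liver gave 3 to 8 calls, with 3 without control replicate 5 or TM replicate 5. Of the 6 genes, PLIN2 and LDLR4 passed in all 16 such fits. TET2 passed in the 10 that could be run. None of those left out a control value of TET2, since its 6 control livers are the minimum. With the replicate block 5 genes passed, 3 of them among the 6. The count past the adjusted p was 0 in each case but luciferase only, where it was 1, and 0 to 0 with a liver left out. The median difference was 0.31 with luciferase and USP9X, and −0.12 to 0.01 with a liver left out.

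For reference Ct the ranges with a liver left out were −0.808 to −0.494 (ActB), −0.217 to 0.435 (luciferase), −1.45 to −0.983 (STAB1), −0.510 to −0.313 (USP9X) and −0.697 to −0.392 (mean).

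Some differences turned sign. With luciferase only these were LDLR4 0.16, HSF2 0.029, SIRT1 0.077, ACAT1 0.023, PSMD12 0.19, HSBP1 0.52, HSF3 0.51, HSP10 0.35, HSPA5/HSP70 0.54 and BNIP3 0.59. With STAB1 only they were HSP90AA1 −0.37, FGFR2 −0.20, DNAJA2/HSP40 −0.68, ST13 −0.61, CEPT1 −0.33 and PPARA −0.52. With luciferase and USP9X they were HSBP1 0.19, HSF3 0.053, HSP10 0.11, HSPA5 0.29 and BNIP3 0.14. Without STAB1 HSBP1 was 0.024 and HSPA5 0.11. Without luciferase DNAJA2 was −0.14, ST13 −0.071 and PPARA −0.0056. DNAJA2 was −0.076 with all Ct, and HSPA5 0.012 centred on the panel and 0.085 with USP9X only. With a liver left out, HSPA5 ran from −0.14 to 0.039. A change of reference shifts all genes of a liver by the same amount, so each difference moves with it. Why the reference genes differed between the groups was not tested.

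The change to 1 h passed in 2 genes with the replicate block, 0 in one fit of the trial, 0 with all Ct, 4 without luciferase (EIF3, HSP10, HSP60 and NCOR, not HSPA2), 4 centred on the panel (HSPA2 among them) and 0 to 2 with a liver left out. Without STAB1 it passed in 1 gene, HSP60 in place of HSPA2. The change to 2 h passed in 1 gene with the replicate block and 0 to 1 with a liver left out, and the change to 4 h in 3 without luciferase and 0 to 0. Each group came from 1 incubator, and the number of livers limits what can be seen.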
